A study of Mus musculus with 8 samples.

Results

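The muscle acetylcholine receptor and the genes that cluster it at the neuromuscular junction were followed in sorted mouse muscle stem cells. The set holds 10 of the 25237 genes in the table, all present there, and was taken by symbol: the subunit genes Chrna1, Chrnb1, Chrnd, Chrng and Chrne, and the clustering genes Agrn, Lrp4, Musk, Dok7 and Rapsn. The set was selected on its measured differences in normalized counts between the ketone and PBS libraries. Those differences are therefore given below as descriptions, and no p-value is given for any of the 10 genes.

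RNA was sequenced from 4 libraries of male mice aged 2 to 4 months given ketone bodies, and from 4 libraries of male mice of the same age given phosphate-buffered saline (PBS). Ketone bodies are fuels that the liver releases into the blood when glucose is scarce. Under strain, ketone libraries are entered as C57BL/7, C57BL/8 or C57BL/9 and all PBS libraries as C57BL/6, so strain entry and treatment cannot be told apart. Sorting from hindlimb muscle kept cells with surface VCAM1 and without CD31, CD45 or Sca1. No source used here states the dose or route of the ketone bodies, or whether the libraries are of separate animals. The p-values below thus reflect only how much these libraries vary, which may be technical. The libraries held 19174005 to 36870537 reads, each equal to between 0.638 and 1.39 normalized counts depending on the library.

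The muscle receptor is a pentamer that opens when acetylcholine from the motor nerve binds it. Before innervation it is built of alpha, beta, gamma and delta subunits, and at the mature junction the epsilon subunit takes the place of gamma. Agrin released by the nerve binds LRP4 on the muscle, LRP4 activates the kinase MuSK, DOK7 binds MuSK from inside the cell, and rapsyn holds the receptors together in the cluster. In cultured myoblasts the subunit genes are switched on with differentiation through E-boxes, the sites of MyoD and myogenin. Genes of the synaptic nuclei of the fibre can carry an N-box, a site of ETS factors.

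Promoter windows of 4 of the subunit genes and of Musk are shown here because E-boxes are the known link of this family to the myogenic factors described further on. Each window is from RefSeq on build GRCm38.p6, reads 5′ to 3′ along the gene and holds 250 bases before and 50 bases after the start. Capitals mark each E-box (CANNTG) and, in Chrne alone, the N-box (TTCCGG or its reverse complement CCGGAA). The windows are Chrna1 at chr2:73580289-73580588 on the minus strand, Chrng at chr1:87205561-87205860 on the plus strand, Musk at chr4:58285712-58286011 on the plus strand, Chrnb1 at chr11:69795888-69796187 on the minus strand and Chrne at chr11:70619145-70619444 on the minus strand.
Chrna1: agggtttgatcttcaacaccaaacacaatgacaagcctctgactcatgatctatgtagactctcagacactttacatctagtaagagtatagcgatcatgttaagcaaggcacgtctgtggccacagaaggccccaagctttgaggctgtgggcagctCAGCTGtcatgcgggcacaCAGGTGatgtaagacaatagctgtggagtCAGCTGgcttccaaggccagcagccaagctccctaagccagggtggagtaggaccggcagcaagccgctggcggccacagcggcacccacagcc
Chrng: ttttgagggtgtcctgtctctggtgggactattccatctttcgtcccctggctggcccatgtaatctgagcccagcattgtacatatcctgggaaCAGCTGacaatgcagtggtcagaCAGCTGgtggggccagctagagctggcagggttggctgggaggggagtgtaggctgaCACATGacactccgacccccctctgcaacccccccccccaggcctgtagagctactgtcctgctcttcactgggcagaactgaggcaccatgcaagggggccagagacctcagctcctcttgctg
Musk: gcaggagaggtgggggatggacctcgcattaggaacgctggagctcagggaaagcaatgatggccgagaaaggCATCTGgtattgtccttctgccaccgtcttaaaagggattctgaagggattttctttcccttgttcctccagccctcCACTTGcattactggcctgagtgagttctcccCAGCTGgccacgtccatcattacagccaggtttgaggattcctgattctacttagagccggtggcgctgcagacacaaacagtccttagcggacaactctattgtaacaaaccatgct
Chrnb1: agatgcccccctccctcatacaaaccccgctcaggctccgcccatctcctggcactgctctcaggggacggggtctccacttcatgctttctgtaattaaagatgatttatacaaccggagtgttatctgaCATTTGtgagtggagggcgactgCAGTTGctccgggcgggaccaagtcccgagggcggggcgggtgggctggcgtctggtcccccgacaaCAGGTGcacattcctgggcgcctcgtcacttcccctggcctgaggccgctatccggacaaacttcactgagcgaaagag
Chrne: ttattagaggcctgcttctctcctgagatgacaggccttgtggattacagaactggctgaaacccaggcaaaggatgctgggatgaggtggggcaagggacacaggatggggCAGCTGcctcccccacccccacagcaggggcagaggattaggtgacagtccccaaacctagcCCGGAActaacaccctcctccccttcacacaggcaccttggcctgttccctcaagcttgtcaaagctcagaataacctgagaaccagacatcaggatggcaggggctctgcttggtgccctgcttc

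The alpha gene Chrna1 and the gamma gene Chrng each held 3 E-boxes, 2 of them with the centre CAGCTG. In Chrna1 the CAGCTG boxes began 92 and 44 bases before the start, and in Chrng 155 and 132 bases before it. The RefSeq window of Chrng lies inside the gene as GENCODE M21 maps it, which begins upstream at 87204657. The positions in Chrng hold for the RefSeq start only. Musk held 3 E-boxes, 1 of them CAGCTG at 68 bases before the start, and the beta gene Chrnb1 held 3 with no CAGCTG. The epsilon gene Chrne held 1 E-box, a CAGCTG, and the N-box at 76 bases before the start. Of all 32851 RefSeq windows of this length, 72.3% held a CANNTG, 16.3% a CAGCTG and 14.9% an N-box on either strand. CAGCTG and CANNTG read the same on both strands, and every CAGCTG is also counted as a CANNTG. The windows of Dok7 and Agrn held at most 1 E-box each. Chrnd, Rapsn and Lrp4 had no entry.

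Among the receptor subunits, Chrna1, Chrnd and Chrng transcripts were much lower in the ketone libraries, Chrnb1 was nearly level, and Chrne was close to 0 in both groups. Chrna1 encodes the alpha subunit, which carries most of the acetylcholine site. Chrna1 stood at 1096, 674, 1238 and 748 normalized counts over ketone libraries 1 to 4, against 6781, 6642, 5569 and 4921 in PBS libraries 1 to 4. Every ketone value lay below every PBS value, and the ketone mean was 15.7% of the PBS mean. The means were 939 ± 271 in ketone and 5978 ± 889 in PBS (SD, n = 4 each), a log2 change of -2.70 ± 0.20 (SE). Here and below, log2 changes are ketone minus PBS on the log2(normalized count + 1) scale. On this scale a gene with low values shows less than its full change. Of the 14022 genes tested, Chrna1 had the 86th lowest log2 change, where the median was -0.01.

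Chrnd and Chrng encode the delta and gamma subunits and lie side by side on chromosome 1. Chrnd stood at 19.1, 0, 28.9 and 14.0 normalized counts over ketone libraries 1 to 4, against 237, 190.1, 69.8 and 171 in PBS libraries 1 to 4. The groups did not overlap, with 73 reads in all over the ketone libraries and 637 over the PBS libraries. The log2 change of Chrnd was -3.98 ± 0.85 (SE), and the ketone mean was 9.28% of the PBS mean. Without ketone libraries 1 and 2 the log2 change was -2.86, since the library at 0 was then left out.

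Chrng, the subunit of the fetal receptor, was almost absent from the ketone libraries. It was at 0, 0, 1.99 and 0 normalized counts over ketone libraries 1 to 4, against 80.6, 37.8, 24.6 and 98.8 in PBS libraries 1 to 4. The ketone value above 0 was 2 reads, against 221 reads over the PBS libraries. Per unit of depth the ketone level was 0.756% of the PBS level, with an exact 95% interval of 0.0910 to 2.76% that covers counting error only. The interval leaves out the spread between libraries, which was 4.01-fold from lowest to highest in PBS, and it is no test of the difference. Chrng passed the filter on low values, a mean of 10 normalized counts, only through its PBS libraries, so a gene of this kind had to differ. Its fitted log2 change of -5.34 ± 0.82 (SE) depends on the pseudocount.

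Chrnb1 encodes the beta subunit and was the subunit with the least spread. It stood at 5157, 5135, 6193 and 5696 normalized counts over ketone libraries 1 to 4, against 6229, 5867, 6663 and 6254 in PBS libraries 1 to 4. The groups overlapped, and the log2 change was -0.18 ± 0.13 (SE). Chrne, the subunit of the mature junction, had 5, 0, 0 and 2 reads in ketone libraries 1 to 4, against 5, 0, 1 and 1 reads in PBS libraries 1 to 4. With 7 reads in each group its mean lay under the floor of 3 reads per library, so no fold is given and no difference was detectable at this depth. Chrne did not pass the filter on low values.

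**Figure D1:**
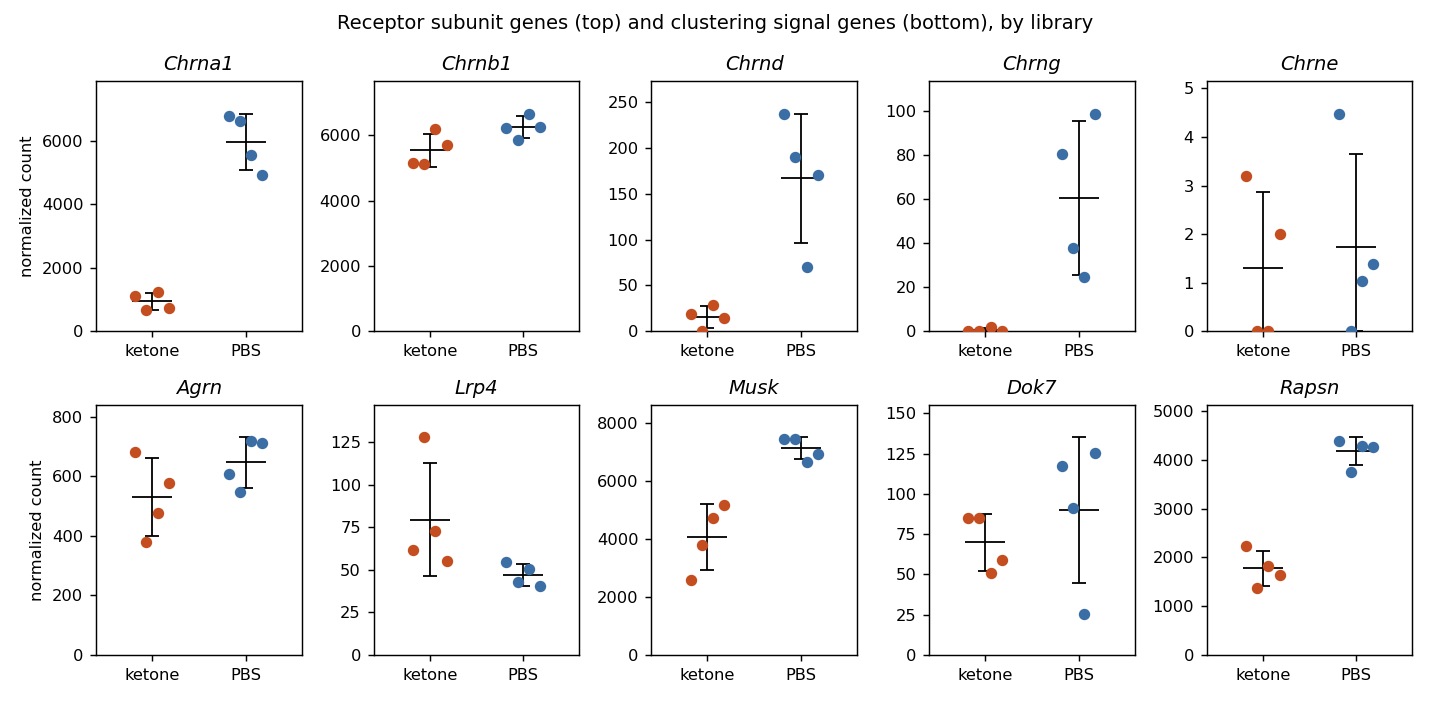
Normalized counts of the 10 genes in each library, 1 panel per gene with its own axis from 0, ketone on the left and PBS on the right. Points are libraries, the long line is the mean and the bars are 1 SD (n = 4, cut at 0). Chrna1, Chrnd, Chrng, Musk and Rapsn show no overlap with ketone lower, and Lrp4 shows none with ketone higher.

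Among the clustering genes, Rapsn and Musk were lower in the ketone libraries, Agrn and Dok7 overlapped, and Lrp4 was higher at a low level. Rapsn encodes rapsyn, the scaffold under the receptor. Rapsn stood at 2243, 1378, 1829.8 and 1640.4 normalized counts over ketone libraries 1 to 4, against 4395, 3755, 4284 and 4270.2 in PBS libraries 1 to 4. The groups did not overlap. The ketone mean of Rapsn was 42.5% of the PBS mean, and the log2 change was -1.26 ± 0.16 (SE). No annotated exon lies on those of Rapsn apart from 4 bases of Gm13778 on the opposite strand.

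Musk encodes the receptor tyrosine kinase of the agrin signal. It stood at 2585, 3782, 4709.8 and 5160.0 normalized counts over ketone libraries 1 to 4, against 7425, 7438, 6665 and 6938 in PBS libraries 1 to 4. The groups did not overlap, but the ketone libraries were spread 2.00-fold from lowest to highest and the PBS libraries 1.12-fold. The log2 change was -0.86 ± 0.19 (SE), and -0.53 without ketone libraries 1 and 2. Those 2 libraries also held 363069 and 396262 normalized counts of the ribosomal RNA precursor Rn45s, against 60108 to 62561 in ketone libraries 4 and 3. The part of that difference in the Musk values was not tested. Vcam1, which encodes the sort marker, was, among the ketone libraries, lowest in library 1 and highest in library 4, as Musk was.

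The signal upstream and beside MuSK was expressed at lower levels. Agrn, which encodes agrin, stood at 682, 380.0, 478 and 579 normalized counts over ketone libraries 1 to 4, against 607, 545, 718 and 712 in PBS libraries 1 to 4. The groups overlapped, and the log2 change was -0.31 ± 0.20 (SE). Agrin is also made by cells other than neurons, and the reads do not tell its neural splice form from the others. Dok7, the adaptor of MuSK, stood at 84.9, 84.8, 50.8 and 59.2 normalized counts over ketone libraries 1 to 4, against 117, 91.4, 25.7 and 125 in PBS libraries 1 to 4. PBS library 3 was the lowest of all 8. The log2 change of Dok7 was -0.17 ± 0.46 (SE), -0.69 without PBS library 3, and above 0 without PBS library 1 or 4 (0.03 and 0.06).

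Lrp4, the agrin receptor, stood at 61.9, 128, 72.7 and 55.1 normalized counts over ketone libraries 1 to 4, against 54.7, 43.1, 50.3 and 40.4 in PBS libraries 1 to 4. The lowest ketone value and the highest PBS value nearly met, at 55 and 61 reads. The log2 change of Lrp4 was 0.67 ± 0.35 (SE), with ketone library 2 far above the others, and 0.42 without it.

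Of the 10 genes, 9 passed the filter into the fit over all genes. There 5 lay below an adjusted p of 0.05, all 5 lower (Chrna1, Chrnd, Chrng, Musk and Rapsn), and groups did not overlap for 6. Of all genes tested, 25.7% were called, 12.8% lower and 12.8% higher, and 28.3% did not overlap in either direction. Groups did not overlap, with ketone lower, for 5 of the 9 and for 14.1% of all genes tested. With ketone higher this held for 1 of the 9, Lrp4, and for 14.2% of all genes tested. The set was selected on this same contrast, so these counts only describe it and are no test of it. Chrng is counted here as called and as not overlapping, but it passed the filter only through its PBS libraries and had to differ.

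The table counts RNA from many cells, so fewer cells of a type and less RNA per cell cannot be told apart. Markers of other cell types differed between the groups beside these genes. Of 17 endothelial genes 17 rose, with a summed level of 36645 to 86903 normalized counts in ketone and 9988 to 12391 in PBS. Of 25 myofiber genes 13 rose and 2 fell, Actn3 and Pygm. Their summed level was 7275 to 40349.7 in ketone, highest in ketone library 1, and 12375 to 17301 in PBS. Of 14 Schwann cell genes 8 rose and 1 fell, with a summed level of 26256 to 37080.2 in ketone and 28048 to 31397 in PBS.

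Smooth muscle and pericyte genes gave 9 of 14 higher and 2 lower (summed level 82980.4 to 98703 in ketone and 92998 to 98457 in PBS), and fibro-adipogenic genes gave 5 of 12 higher and 3 lower (76204 to 129922 in ketone and 122353 to 165749 in PBS). Blood and immune genes gave 7 of 13 tested higher and 0 lower, with a summed level of 1625 to 11714 in ketone and 1071 to 1481 in PBS. Of 10 neuron genes 4 were tested and 1 rose, Stmn2, with a summed level of 169 to 355 in ketone and 98.5 to 126 in PBS. Snap25 and Chat, of the nerve terminal and of acetylcholine synthesis, were at 0 in all 8 libraries, and Nefl and Rbfox3 in all 4 PBS libraries. The genes with the highest level in each list were Aqp1 (endothelial), Actn3 (myofiber), Pmp22 (Schwann cell), Des (smooth muscle and pericyte), Gsn (fibro-adipogenic), Lyz2 (blood and immune) and Stmn2 (neuron). Des is also on the stem cell list, at 58212 ± 8694 in ketone and 56630 ± 1531 in PBS. It was the largest part of the summed level of smooth muscle and pericyte genes. The part of these marker transcripts in the values of the 10 genes was not tested.

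The label was checked against stem cell markers. Pax7 stood at 1500.1 to 2014 normalized counts in ketone and 1858 to 2541 in PBS, and Myf5 at 4977 to 8701 in ketone and 7555 to 9576 in PBS. Both groups overlapped for both genes, and neither passed (limma adjusted p = 0.265 and 0.119). Of 14 stem cell genes, 6 passed as lower and 0 as higher, with a median log2 change of -0.50. Groups also did not overlap for Chodl, with ketone higher, and for Fgfr4, with ketone lower. Their log2 changes were 0.48 and -0.53, and neither passed (limma adjusted p = 0.0886 and 0.0636). Of the sort markers, Vcam1 averaged 24879 ± 10765 in ketone and 42043 ± 3281 in PBS (limma adjusted p = 0.0206, and 0.0507 to 0.0650 without PBS library 1, 2 or 3, ketone library 2, or ketone libraries 1 and 2). Pecam1, the gene of CD31, averaged 4233 ± 1506 in ketone and 733 ± 118 in PBS, and Ly6a, the gene of Sca1, 4907 ± 1742 in ketone and 535 ± 29.7 in PBS. Both rose (limma adjusted p = 1.68e-05 and 3.28e-06). Ptprc, the gene of CD45, averaged 94.1 ± 136 in ketone and 20.3 ± 5.49 in PBS and did not pass (limma adjusted p = 0.217).

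Levels were next compared between genes as normalized counts per kilobase of exon. In the ketone libraries Chrnb1 was highest at 2191 ± 199, followed by Musk at 1075 ± 301, Rapsn at 984 ± 202, Chrna1 at 214 ± 61.9 and Agrn at 57.04 ± 14.0 (SD, n = 4). In the PBS libraries the order was Chrnb1 at 2471 ± 129, Rapsn at 2317 ± 159, Musk at 1885 ± 101, Chrna1 at 1363 ± 203 and Agrn at 69.6 ± 9.08. The 4 most abundant genes in both groups were thus the beta and alpha subunits, the kinase and the scaffold. The ranges of Musk and Rapsn overlapped in ketone, as did those of Chrnb1 and Rapsn in PBS. Within each PBS library, however, Rapsn was below Chrnb1, at 0.899 to 0.991 of it.

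The other genes stood below these. Dok7 had 16.4 ± 4.11 per kilobase in ketone and 21.03 ± 10.6 in PBS, and Lrp4 7.56 ± 3.15 in ketone and 4.48 ± 0.624 in PBS. Chrnd had 4.72 ± 3.66 in ketone and 50.8 ± 21.5 in PBS, Chrng 0.120 ± 0.239 in ketone and 14.5 ± 8.41 in PBS, and Chrne 0.769 ± 0.932 in ketone and 1.02 ± 1.14 in PBS. From Dok7 downward in ketone, and from Agrn to Chrng in PBS, neighbours in the order overlapped.

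**Figure D2:**
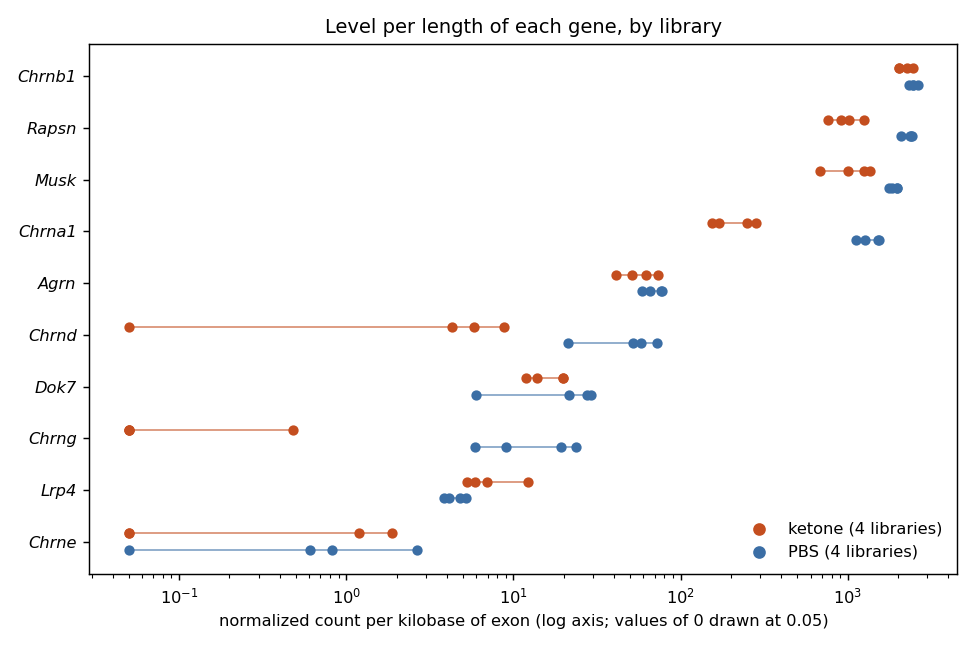
Normalized count per kilobase of exon for each gene on a log axis, ketone above PBS in each row, with 1 point per library and a line over the range. Chrnb1, Rapsn, Musk and Chrna1 lie above the other genes in both groups, and values of 0 are drawn at 0.05.

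The assembled receptor holds its subunits in fixed proportion, and the transcripts were next compared within each library. Per kilobase, Chrna1 was 0.0758 to 0.123 of Chrnb1 in the ketone libraries and 0.454 to 0.653 of it in the PBS libraries. Of the summed level of the 5 subunit genes per kilobase, Chrna1 made up 7.03 to 10.9% in ketone and 30.6 to 38.8% in PBS. The beta gene made up 88.8 to 93.0% in ketone and 59.4 to 67.3% in PBS. Chrnd was 0 to 0.321% in ketone and 0.540 to 1.76% in PBS. The gamma gene was at most 0.0175% in ketone and 0.151 to 0.647% in PBS. In PBS, gamma made up 88.0 to 100% of gamma plus epsilon, so of these 2 transcripts the fetal one was the more abundant. In ketone this share rests on 2 reads of Chrng and 7 of Chrne and is not given. These ratios are within a library and do not depend on how libraries were scaled.

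**Figure D3:**
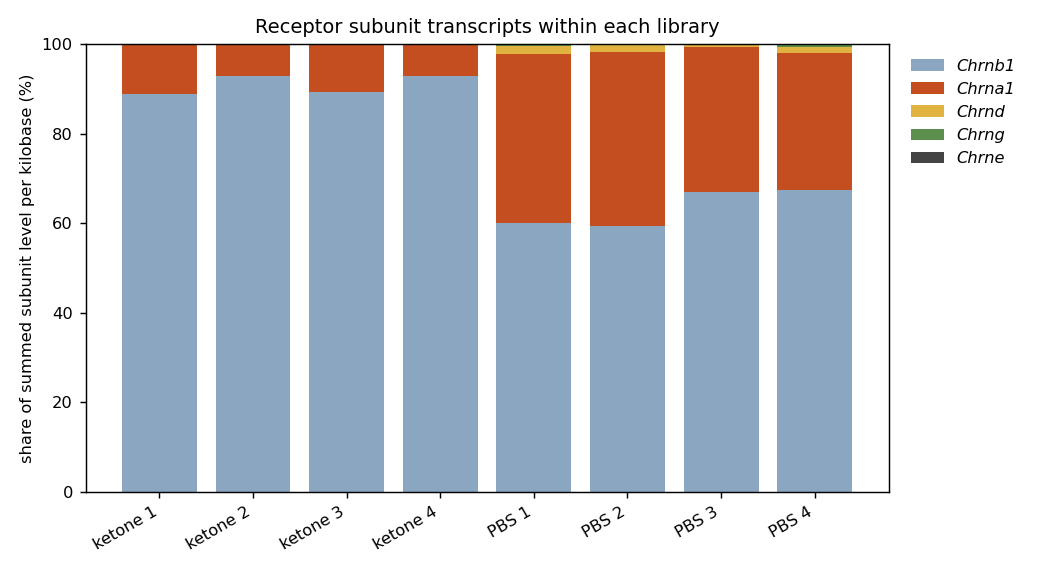
Share of each receptor subunit gene in the summed level per kilobase of the 5 genes, 1 bar per library, with the 4 ketone libraries left of the 4 PBS libraries. The Chrna1 share is 7.03 to 10.9% in ketone and 30.6 to 38.8% in PBS, and Chrnb1 fills nearly all of the rest.

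Other within-library ratios separated the abundant genes from each other. Rapsn per kilobase was 3.60 to 5.34 times Chrna1 in ketone and 1.38 to 2.11 times Chrna1 in PBS. Rapsn was 0.377 to 0.611 of Chrnb1 in ketone and 0.899 to 0.991 of it in PBS. Chrna1 was 0.125 to 0.365 of Musk in ketone and 0.611 to 0.786 of it in PBS. The ratio of Musk to Rapsn overlapped, at 0.550 to 1.501 in ketone and 0.743 to 0.945 in PBS, with the lowest value in ketone library 1. The difference between the groups was thus smaller for Musk than for Rapsn in 3 of 4 ketone libraries, and larger for Chrna1 than for either in all 4.

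Spread within a group also differed from gene to gene. In PBS the coefficient of variation was 5.20% for Chrnb1, 5.35% for Musk, 6.85% for Rapsn and 14.9% for Chrna1. For Chrnd, Dok7 and Chrng it was 42.3%, 50.3% and 57.9% in PBS. PBS library 3 was the lowest of the 4 PBS libraries for all 3 of these genes, and also for Myog, which encodes myogenin, at 358 against 904, 1046 and 1496 normalized counts in PBS libraries 1, 2 and 4. In ketone the coefficient of variation was 9.09% for Chrnb1, 20.5% for Rapsn, 28.03% for Musk and 28.9% for Chrna1.

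The list of myogenic E-box factors and their partners changed in both directions. Of its 25 genes, 11 passed, 6 higher and 5 lower, with a median log2 change of -0.08. It holds partners and inhibitors as well as factors that bind E-boxes, and Myog is counted in the denervation list instead. Of all genes tested 25.7% passed, a share to set beside this list and each list below. Id1, an inhibitor of E-box binding, rose to 7435 ± 1649 normalized counts in ketone, against 1975 ± 179 in PBS (log2 change 1.89 ± 0.16, limma adjusted p = 4.86e-06). Mef2c, a muscle and endothelial transcription factor, averaged 625 ± 274 in ketone and 125 ± 39.9 in PBS and rose by 2.26 on the log2 scale (limma adjusted p = 0.000236). Msc, which encodes the repressor musculin, fell to 2671 ± 597 in ketone, against 8175 ± 1946 in PBS (log2 change -1.61, limma adjusted p = 8.39e-05).

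Of the factors closest to the receptor genes, Myod1 and Myog were named after their values were seen. Myod1 stood at 13247, 28397, 18406 and 21933 normalized counts over ketone libraries 1 to 4, against 35478, 40934, 35003 and 29182 in PBS libraries 1 to 4. The groups did not overlap, and Myod1 fell by 0.82 on the log2 scale (limma adjusted p = 0.0135, and 0.0501 without PBS library 2). Myog stood at 221, 93.4, 135 and 0 in ketone libraries 1 to 4, and its log2 change was -4.36 ± 1.24 (limma adjusted p = 0.0199). Without ketone library 4, which was at 0, the log2 change was -2.57. The Myog call was lost with robust estimation (limma adjusted p = 0.126) and without PBS library 2 or 4 (limma adjusted p = 0.0609 and 0.0569).

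Of 26 genes listed for the relay around and below MuSK, 2 passed, both lower, with a median log2 change of -0.20. This was 7.69% of the list, against 25.7% of all genes tested, and the count depended on the libraries used. Hsp90b1 was on this list but encodes an endoplasmic reticulum chaperone, so its call is not read as one of the relay itself. Hsp90b1 fell to 8172 ± 472 normalized counts in ketone, against 20129 ± 3381 in PBS (log2 change -1.29, limma adjusted p = 5.80e-05). Dvl3, a dishevelled protein that can bind MuSK, fell by 0.46 on the log2 scale (limma adjusted p = 0.0308, but 0.0521 to 0.0864 with the library number as a block or without any 1 of the PBS libraries or ketone library 4). Crk and Crkl, the adaptors that DOK7 recruits, had log2 changes of 0.24 and -0.38 and did not pass. Both were named after their values were seen. Without ketone libraries 1 and 2, 8 of the 26 passed, 1 higher and 7 lower.

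Genes of the synaptic basal lamina and its scaffold gave 13 of 27 past the threshold, 2 higher and 11 lower, with a median log2 change of -0.54. Nid2, a nidogen of the basement membrane, fell to 890 ± 133 normalized counts in ketone, against 2969 ± 196 in PBS (log2 change -1.75, limma adjusted p = 4.36e-06). Ank3, an ankyrin, fell by 1.603 on the log2 scale and Itga7, the laminin-binding integrin of muscle, by 1.56 (limma adjusted p = 1.47e-05 and 2.01e-05). Dag1, which encodes dystroglycan, the laminin and agrin receptor that links the lamina to utrophin, fell to 27448 ± 9867 in ketone, against 119171 ± 16719 in PBS. Its log2 change was -2.18 (limma adjusted p = 3.02e-05). Dag1 and Ache were named after their values were seen. Ache, which encodes acetylcholinesterase, averaged 200.5 ± 44.8 in ketone and 294 ± 53.6 in PBS and did not pass (limma adjusted p = 0.0892). Many genes of this list belong to the basement membrane of other cells as well.

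Factors of transcription in synaptic nuclei gave 2 of 12 tested genes past the threshold, both higher, with a median log2 change of -0.09. Erbb3, a neuregulin receptor that is also made by Schwann cells, averaged 155 ± 34.2 normalized counts in ketone and 51.4 ± 18.9 in PBS (log2 change 1.63, limma adjusted p = 0.00291). Erf, an ETS repressor, rose by 0.57 on the log2 scale (limma adjusted p = 0.0401). The Erf call was lost without any 1 of the PBS libraries, ketone library 1 or ketone library 2, where 1 gene of the list passed, and without both of those ketone libraries (limma adjusted p = 0.0553 to 0.145). Gabpa and Gabpb1, which form the ETS factor of the N-box, had log2 changes of -0.25 and -0.08 and did not pass. These 2 genes were likewise named after their values were seen.

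Genes that respond to denervation or to electrical activity, Myog among them, gave 6 of 17 tested past the threshold, 2 higher and 4 lower. Their median log2 change was -0.15. Ncam1, a cell adhesion gene, fell by 0.52 on the log2 scale (limma adjusted p = 0.0158). Leaving out PBS library 1 or 4 ended the call (limma adjusted p = 0.0582 and 0.0575). Trim63, a ubiquitin ligase of muscle atrophy, averaged 34.9 ± 25.1 in ketone and 2.25 ± 2.99 in PBS. PBS libraries 1 to 4 held 3, 6, 0 and 0 of its reads. Trim63 passed the filter on low values only through its ketone libraries, and a gene of this kind had to differ. Its log2 change of 3.67 (limma adjusted p = 0.0117, but 0.0983 without ketone libraries 1 and 2) is thus not read as a result. Without PBS library 2, 3 genes of this list passed.

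Of the genes for receptor assembly and other cholinergic genes, 17 of 33 were tested and 8 passed, all lower, with a median log2 change of -0.42. Chrna7, which encodes the alpha 7 receptor of neurons and immune cells, stood at 109, 138, 230.0 and 248 normalized counts over ketone libraries 1 to 4, against 518, 550.3, 711 and 520.4 in PBS libraries 1 to 4. It fell by 1.73 on the log2 scale (limma adjusted p = 0.000351). Pdia3, a folding enzyme of the endoplasmic reticulum, fell by 0.99, and Gfpt1, which feeds protein glycosylation and is mutated in a human myasthenic syndrome, by 0.85 (limma adjusted p = 0.00146 and 0.00188). Of this list 5 genes were at 0 in all 8 libraries (Chrna6, Chrnb3, Chat, Slc5a7 and Slc18a3). All gene lists were chosen with earlier results of these data known, and none was tested as a set.

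**Figure D4:**
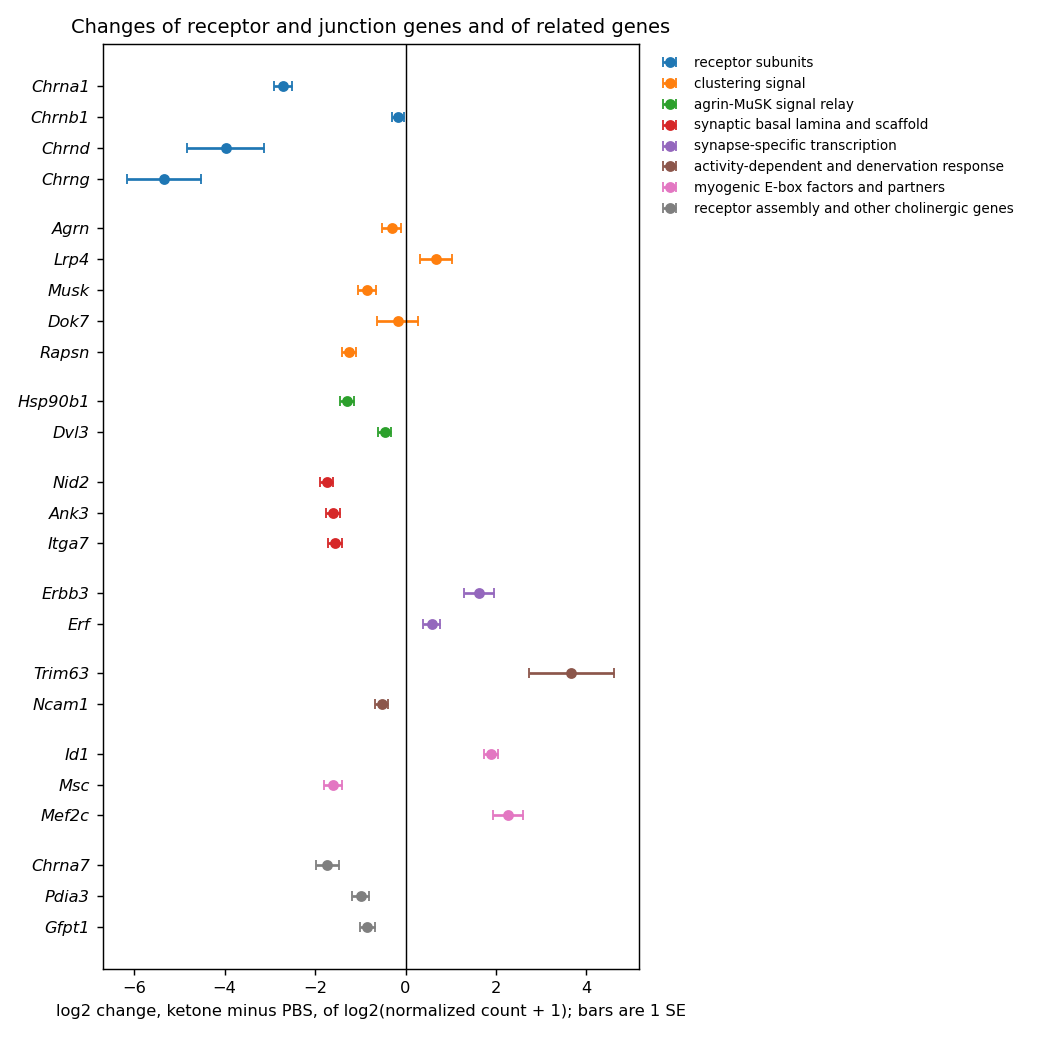
Log2 change (ketone minus PBS, log2(normalized count + 1) scale) of the 9 tested genes of the set and of the related genes named in the text by rule, with bars of 1 SE and 1 colour per list. Chrng at -5.34 and Chrnd at -3.98 have the widest bars of the subunits, while Chrnb1 at -0.18 lies near 0.

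The genes with the most similar profile over the 8 libraries were found by the root mean square difference of centred log2 values, 3 for each tested gene. For Chrna1 these were Col5a3, Dclk1 and Mest (differences of 0.169, 0.214 and 0.222). For Rapsn they were Ltbp3, Entpd2 and Slc22a17 (0.0539, 0.0798 and 0.0942), and for Musk Fbxo30, Arhgap28 and Igsf10 (0.0930, 0.0951 and 0.0964). For Chrng they were Bub1, Iqgap3 and Melk (0.499, 0.522 and 0.547), which were at 0 in all 4 ketone libraries. Like Chrng, these genes passed the filter on low values only through their PBS libraries and had to differ. Their likeness to Chrng is thus not read as a result. For Chrnd they were Tmem233, Mgam and Cd276, with differences of 0.706 to 0.726. Chrnd had 0 to 30 reads per ketone library, and at such low counts these differences also hold counting noise.

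For the genes that overlapped between groups, the closest were Cog3, Hnrnpll and Nf2 for Chrnb1 (0.0436 to 0.0537), Dcps, Cog6 and Npr2 for Agrn (0.0946 to 0.0986), and Mterf1b, Arpp21 and Fbxl19 for Dok7 (0.275 to 0.403). For Lrp4 they were Ubn2, Zcchc7 and Tmem265 (0.127 to 0.164). Likeness over 8 libraries in 2 groups follows the group difference first, and no p is given for it.

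Position on the chromosome was examined in the GENCODE M21 annotation of the same build. Chrnd (chromosome 1, 87190607 to 87200070) and Chrng (chromosome 1, 87204657 to 87212694) lie on the plus strand with 4586 bases between them. The gene 1219 bases beyond Chrng, Eif4e2, which encodes a cap-binding protein, averaged 2055 ± 245 normalized counts in ketone and 2279 ± 171 in PBS and did not pass (limma adjusted p = 0.452). Chrna1 lies on chromosome 2, 73563215 to 73580338, and its neighbours Chn1 and Wipf1 had log2 changes of 0.76 and -0.52 and did not pass (limma adjusted p = 0.0944 and 0.0592). Musk lies on chromosome 4, 58285960 to 58374303, and both its neighbours fell, Svep1 by 1.63 and Lpar1 by 0.55 on the log2 scale (limma adjusted p = 0.00012 and 0.0432, the second lost under 10 of the alternatives).

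Chrnb1 (chromosome 11, 69784036 to 69795943) lies 124 bases from Fgf11, which fell by 1.16 on the log2 scale (limma adjusted p = 0.00369), and 12 bases from Zbtb4, which did not pass. Agrn (chromosome 4, 156165290 to 156197488) lies 1935 bases from the interferon-induced gene Isg15, which rose by 2.15 (limma adjusted p = 7.16e-05). Rapsn (chromosome 2, 91035620 to 91045729) and Lrp4 (chromosome 2, 91457511 to 91513779) share a chromosome with Chrna1. Beside Lrp4, Ckap5 fell by 0.46 (limma adjusted p = 0.0488, also lost under 10 of the alternatives). Over the set, 18 other genes were nearest neighbours, 15 were tested, and 4 fell and 1 rose. Of all genes tested, 25.7% were called, 12.8% lower and 12.8% higher, and the neighbours were not tested as a set. The neighbours were looked up after the values of the 10 genes were seen.

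**Figure D5:**
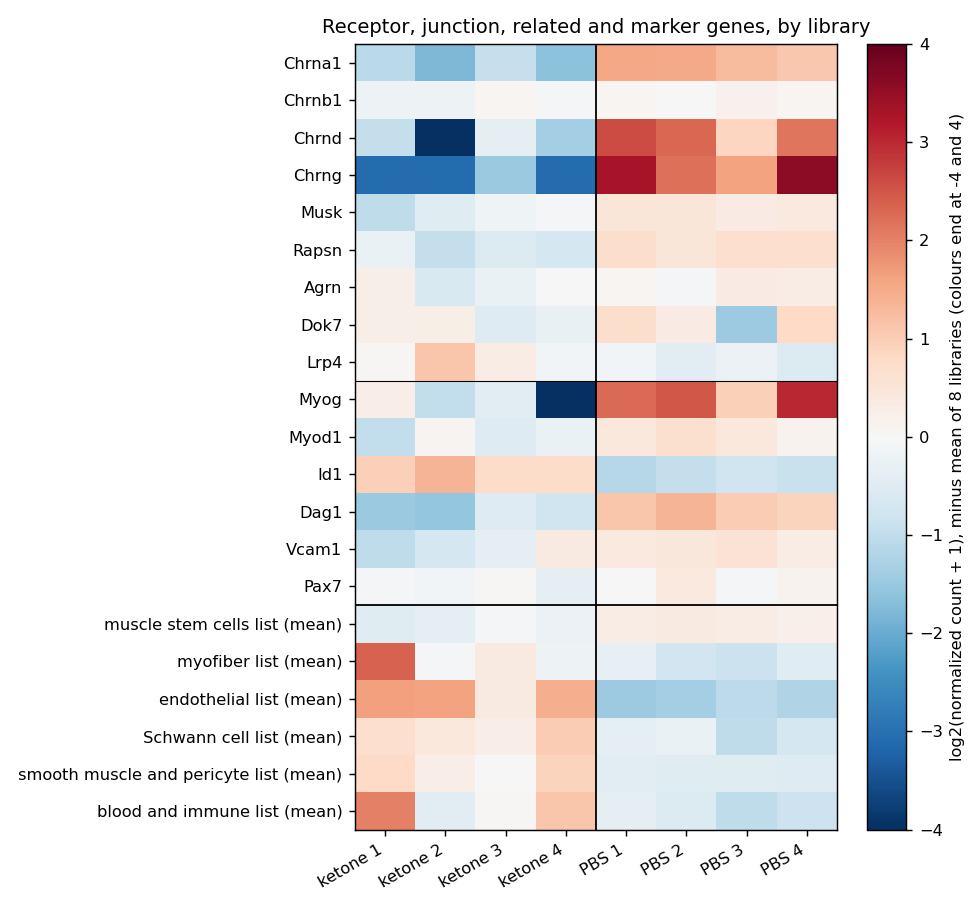
Log2(normalized count + 1) minus its mean over the 8 libraries, for 9 genes of the set, 6 related genes and the means of 6 marker lists, with the ketone libraries left of the PBS libraries. Colours end at -4 and 4, beyond which lie Chrnd in ketone library 2 and Myog in ketone library 4, both at 0 reads.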

How the data were processed

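The authors deposited 1 table of normalized counts, a signal made by dividing read counts by 1 factor per library. Per the submitters' processing notes, Trim Galore, STAR, featureCounts (Subread) and DESeq2 were used with build mm10. Their versions and the strand setting were not given in the sources used here. Per the labels' protocols, cDNA was primed with oligo(dT) and amplified for 13 to 15 cycles, so reads are not independent molecules and intervals cover counting error only. Whole reads were recovered for all 8 libraries (100% of values whole within 0.001 read). For ketone libraries 3 and 4 the factor lay so close to 1 that this could be checked less strictly.

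The members and gene lists were chosen with earlier results of these data known. The table held 25239 rows, and 2 rows named by a date were left out. Genes with a mean of at least 10 normalized counts (14022) were compared with limma 3.58.1 in R 4.3.3 on log2(normalized count + 1), with a mean trend and Benjamini-Hochberg adjustment over all of them, at 0.05. The script was tested on simulated data. Alternatives were other pseudocounts, filters and scalings, robust estimation, a replicate block, edgeR 4.0.16 and DESeq2 1.42.0 on the whole reads, and leaving out libraries. Lengths are exon unions of GENCODE M21, and 96.6% of symbols matched. Promoter windows are from RefSeq, and 7 of the 10 genes matched. Named related genes were those called with the smallest p in each list, up to 3. Any other gene is said to have been chosen after its values were seen, apart from the sort and stem cell markers, genes named to complete a count, and those found by likeness or as the highest or absent genes of a marker list. 1 gene that this rule named is not reported here.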

Additional observations from a re-analysis of the deposited data

Results flagged for a closer look

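Chrng in ketone library 3 stood apart from the other ketone libraries, at 1.99 normalized counts where the other 3 were at 0. The value rests on 2 reads. With the other 3 at 0, any read at all would have set this library apart, so the usual rate of about 1 in 20 groups by chance does not apply to it. In all, 20 groups of 4 libraries were examined.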

How the results depend on the processing

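The count of genes past the threshold was 3600. It ran from 2354 (without PBS library 1, 1271 higher and 1083 lower) to 4076 with 1 library left out, and from 3304 to 4685 under the other alternatives. The log2 change ran from -2.85 to -2.56 for Chrna1, -1.38 to -1.14 for Rapsn, -0.99 to -0.53 for Musk and -7.04 to -3.41 for Chrng. Called genes of the agrin and MuSK relay were 2, against 1 to 4 with 1 library left out and 8 without ketone libraries 1 and 2. Those of transcription in synaptic nuclei were 2, against 1 to 2 with 1 library left out, and those of denervation 6, against 3 to 6. No result reversed among those called, and the cause of these shifts was not tested. Libraries with the same number correlated at -0.06 to 0.11 in their deviations, so the numbers were not taken as pairs. With the replicate block 3595 genes were called, and the relay list had 1 called gene, since Dvl3 was lost. Depth limits Chrne and the ketone values of Chrng and Chrnd, which rest on 0 to 30 reads per library.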
